A study of Mus musculus with 6 samples.

Results

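The genes described here are 45 mouse genes of DNA replication and S phase, taken by name from the 39089 genes of the deposited expression table. All 45 were found by their symbol, all are annotated as protein coding, and they lie on 16 chromosomes. The tissue was the limbus, the rim of the cornea where the epithelial stem cells lie, taken from mice with the genotype WT. A group of 3 samples came from mice that received the compound L-733,060, which blocks the NK1 receptor, the receptor of the neuropeptide substance P. It was injected beneath the conjunctiva on days 0 and 3. The control group of 3 samples came from mice that received sterile water, and the sources used here do not give the days of the water injections, the strain or the age. The labels number the samples within each group without stating whether each came from a separate animal, so the p-values measure a spread that may be partly technical.

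Replication starts when the origin recognition complex (ORC), with the loaders Cdc6 and Cdt1, places the ring-shaped MCM2-7 helicase on DNA before S phase. At S-phase entry Cdc45 and the GINS complex join the ring to form the working helicase, the polymerase alpha-primase complex lays down primers, and polymerases delta and epsilon extend them while held by the sliding clamp PCNA. Transcription of many of these genes is switched on at the G1/S boundary by factors of the E2F family. In the corneal epithelium, dividing cells are found mainly in the limbus and the basal layer.

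Total counts per sample were 18708288 to 23541791, and 3 counts in a sample corresponded to 0.127 to 0.160 CPM, the normalised read count scaled to library size. The lowest count of any of the 45 genes in any sample was 45 and the highest 4324, so all 45 passed the filter on low counts that left 15712 genes for testing. Epithelial keratins of the limbus and cornea were abundant in every sample, with Krt15 (a keratin of limbal basal cells) at 9626 to 17910 CPM. Control 2 stood above the other controls in 33 of the 45 genes, while it was the highest control in 35.6% of all tested genes. Control 3 was the lowest control in 22 of the 45 genes and control 1 in 20. Of the antagonist samples, sample 1 was the highest in 27 of the 45 genes, while it was the highest in 29.0% of all tested genes. Antagonist sample 3 was the lowest in 26 of the 45, while it was the highest in 37.6% of all tested genes. In bulk tissue, more cells in S phase and more RNA of these genes per cell cannot be told apart.

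Most of the 45 replication genes were called higher after the antagonist, among them genes of every role, though some subunits of several complexes were not called. In the comparison of L-733,060 with control, the quasi-likelihood test of edgeR, adjusted by Benjamini-Hochberg over all 15712 genes, called 37 of the 45 genes higher, 0 lower and 8 not changed beyond the threshold of 0.05. DESeq2 also called 37 higher and 0 lower, and at an unadjusted p under 0.05 the edgeR fit had 0 of the 45 lower. Of all tested genes, 21.4% were called higher and 19.9% lower. The median log2 fold change of the 45 genes was 0.88, with quartiles of 0.58 and 1.06, against a median of -0.0016 over all tested genes. A fitted fold of at least 2 was reached by 16 of the 45, where 10.7% of all tested genes were called higher with such a fold. In 36 of the 45 genes every antagonist sample lay above every control, against 26.6% of all tested genes. The raw counts of the 45 genes made up 0.0894%, 0.108% and 0.0855% of all counts in controls 1 to 3, and 0.175%, 0.172% and 0.164% in antagonist samples 1 to 3.

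**Figure D1:**
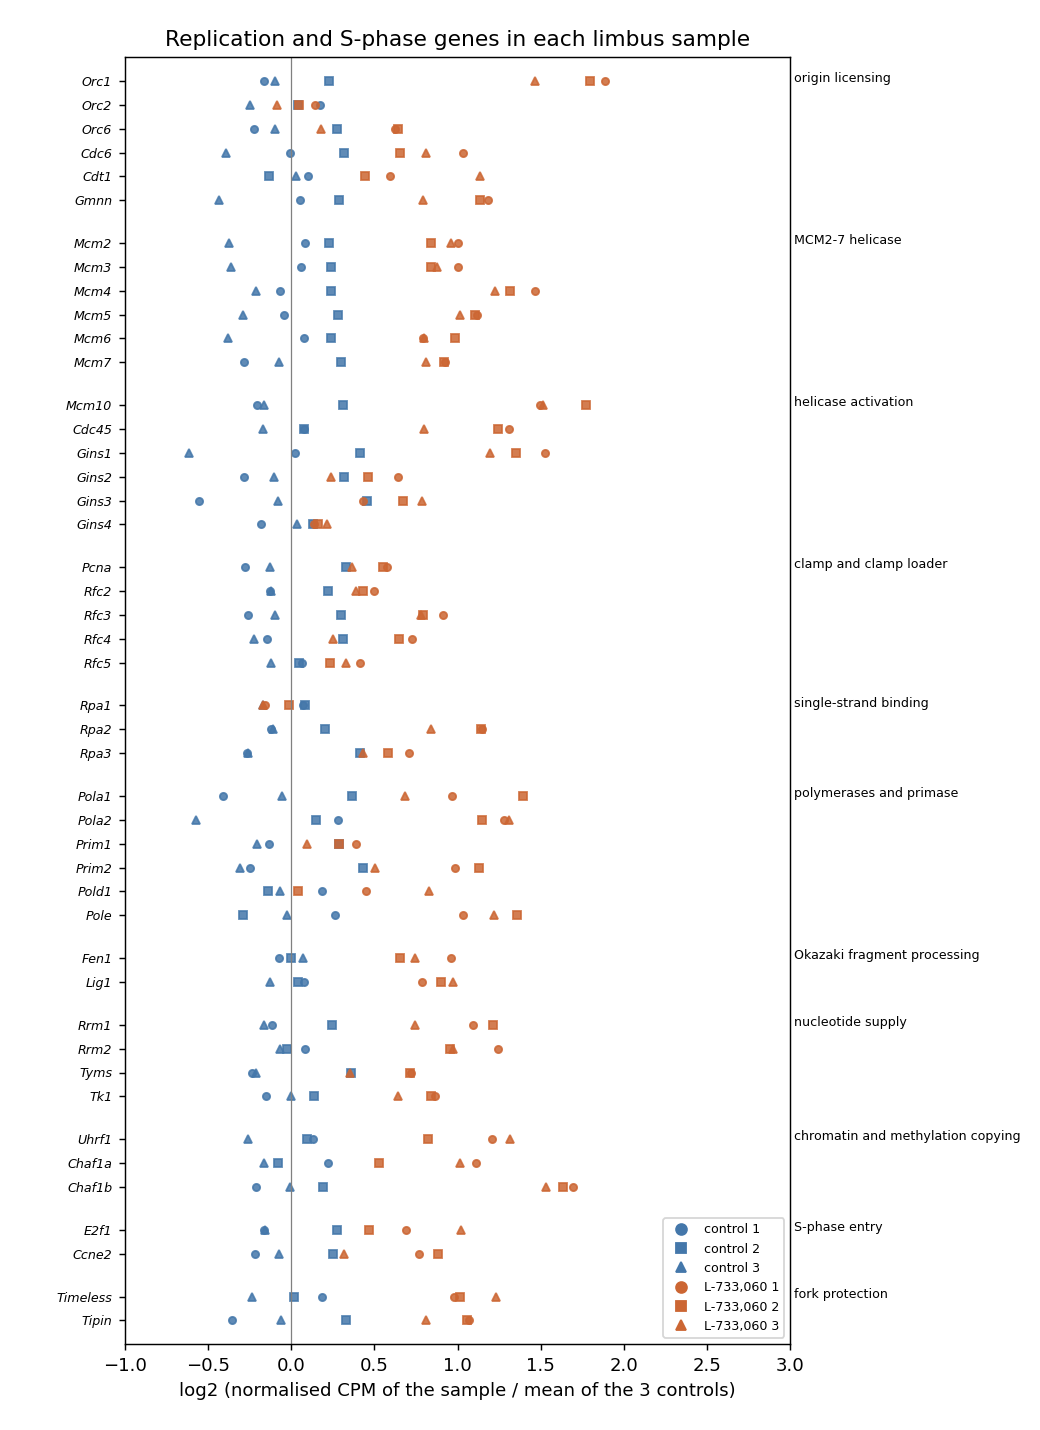
Each point is 1 sample; the x axis is the log2 ratio of its normalised CPM to the mean of the 3 controls, and the rows are the 45 genes grouped by role. Control points (blue) scatter around 0, and in 36 of the 45 genes all 3 antagonist points (orange) lie to the right of all 3 control points.

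The count of 37 rested unevenly on single samples. Leaving out controls 1, 2 and 3 in turn gave 29, 38 and 29 genes, and leaving out antagonist samples 1, 2 and 3 gave 30, 32 and 36. In these 6 fits 0 of the genes were called lower. Of the 37 genes, 28 were called in all 6 of these fits, and each of the other 9 is given below with its adjusted p in the fits where it missed the threshold. The median log2 fold change of the 45 genes was 0.99 without control 2 and 0.78 without control 3.

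The start regions of these genes are shown because several carry the letters of an E2F site, the element through which E2F factors bind DNA. RefSeq windows of GRCm38.p6, from 250 bases before to 50 after a listed transcription start, were found for 35 of the 45 genes, 41 windows in all. The motif was searched as TTTCCCGC, TTTGGCGC, TTTCGCGC or TTTGCCGC on both strands, and matches may overlap one another. It was present in 13 of the 35 genes (37.1%), against 528 of 12317 tested genes with a window (4.29%) and 704 of all 27025 genes with one (2.61%). The share was not particular to the 45 genes: of 30 other replication factors with a window, 9 held the motif (30.0%). The windows of the 45 genes had a median GC content of 58.3%, against 59.7% for the windows of tested genes. The 13 genes were Cdc6, Cdt1, Gins3, Lig1, Mcm3, Mcm5, Mcm6, Mcm7, Orc1, Pola1, Pold1, Rfc3 and Uhrf1. Below are the whole window of Orc1, which had the largest fold change of the 45, 60-base stretches around the first match of 7 other genes, and the window of Orc2, which has no match and did not pass the test. Of these, Pold1 holds a match but was not called, and the others with a match were called higher. The sequences are from RefSeq, read 5′ to 3′ along the gene, with the matched letters in capitals.
Orc1 (chr4:108579204-108579503, plus strand): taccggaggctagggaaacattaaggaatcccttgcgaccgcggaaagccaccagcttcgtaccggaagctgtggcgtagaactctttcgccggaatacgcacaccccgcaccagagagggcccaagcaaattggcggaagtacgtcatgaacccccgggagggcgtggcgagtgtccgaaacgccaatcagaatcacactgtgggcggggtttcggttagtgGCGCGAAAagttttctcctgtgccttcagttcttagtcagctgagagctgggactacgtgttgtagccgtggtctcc
Cdc6 (chr11:98907987-98908046, plus strand): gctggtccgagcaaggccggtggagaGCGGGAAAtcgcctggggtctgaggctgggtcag
Mcm3 (chr1:20820263-20820322, minus strand): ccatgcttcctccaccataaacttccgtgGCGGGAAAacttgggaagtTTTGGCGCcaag
Mcm5 (chr8:75109330-75109389, plus strand): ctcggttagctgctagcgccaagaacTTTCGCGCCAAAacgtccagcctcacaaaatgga
Mcm6 (chr1:128359782-128359841, minus strand): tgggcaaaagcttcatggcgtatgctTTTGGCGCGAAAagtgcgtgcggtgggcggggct
Mcm7 (chr5:138172015-138172074, minus strand): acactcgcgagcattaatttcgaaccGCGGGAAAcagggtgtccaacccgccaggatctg
Rfc3 (chr5:151651185-151651244, minus strand): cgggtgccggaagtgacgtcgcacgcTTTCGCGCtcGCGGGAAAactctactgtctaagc
Pold1 (chr7:44548766-44548825, minus strand): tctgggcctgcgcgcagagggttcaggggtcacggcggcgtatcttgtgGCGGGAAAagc
Orc2 (chr1:58505060-58505359, minus strand): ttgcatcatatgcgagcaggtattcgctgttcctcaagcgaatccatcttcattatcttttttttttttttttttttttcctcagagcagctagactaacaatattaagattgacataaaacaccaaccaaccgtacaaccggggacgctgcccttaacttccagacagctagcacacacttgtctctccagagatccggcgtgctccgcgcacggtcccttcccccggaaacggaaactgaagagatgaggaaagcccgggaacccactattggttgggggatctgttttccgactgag

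In Mcm3 and Rfc3 the stretch holds a pair of separate matches, and in Mcm5 and Mcm6 matches on both strands overlap in a single run. A further match of Mcm6, nearer the listed start, and one of Mcm7, just after the start, lie outside the stretches shown. The Orc1 match is written on the opposite strand, as GCGCGAAA, just before the listed start, which lies inside the gene span of the deposited table. The median log2 fold change was 0.88 in the 13 genes with a match, 11 of them called higher, and 0.79 in the 22 genes without one, 18 of them called higher. The ranges overlapped widely, from 0.48 to 1.72 with a match and from -0.11 to 1.62 without. A match of letters is a description of the sequence and was not measured as a bound site.

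Origin licensing genes rose in 5 of 6 cases, and the complex that marks origins changed unevenly. Orc1, the ORC subunit whose level is cell-cycle regulated in mammals, was at 2.08, 2.73 and 2.18 CPM in controls 1 to 3 and at 8.62, 8.08 and 6.43 CPM in antagonist samples 1 to 3. The groups were far apart, and the log2 fold change of 1.72 (SE 0.21, edgeR adjusted p = 6.7e-05) was the largest of the 45 genes. Orc2, a core subunit of the same complex, was at 23.7, 21.6 and 17.7 CPM in controls and 23.2, 21.7 and 19.8 CPM after the antagonist. These groups overlapped almost entirely, with a log2 fold change of 0.04 (95% interval -0.28 to 0.36, edgeR adjusted p = 0.859). Orc6, the smallest ORC subunit, rose from 15.6 ± 2.9 to 22.0 ± 3.8 CPM (SD, n = 3 each), with a log2 fold change of 0.50 (SE 0.18, edgeR adjusted p = 0.0413). Its groups overlapped, since control 2 at 18.8 CPM exceeded antagonist sample 3 at 17.7 CPM. The Orc6 call was lost when control 1 or 3 or antagonist sample 1 or 2 was left out, with, in that order, adjusted p-values of 0.16, 0.126, 0.138 and 0.114.

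The factors that load the helicase, and the protein that blocks reloading, rose too. Cdc6, which loads MCM2-7 together with ORC, was at 5.92, 7.42 and 4.53 CPM in controls and 12.2, 9.36 and 10.5 CPM after the antagonist, a log2 fold change of 0.84 (SE 0.21, edgeR adjusted p = 0.00694). Its partner Cdt1 was at 4.81, 4.09 and 4.58 CPM in controls and at 6.79, 6.10 and 9.87 CPM after the antagonist, where sample 3 stood above the others. The log2 fold change of Cdt1 was 0.76 (SE 0.22, edgeR adjusted p = 0.0153), and the call was lost without control 2 (adjusted p = 0.0611) or antagonist sample 3 (adjusted p = 0.0622). Geminin (Gmnn), which binds Cdt1 and prevents a second round of loading, was at 14.3, 16.8 and 10.2 CPM in controls and 31.3, 30.2 and 23.8 CPM after the antagonist. It rose by a log2 fold change of 1.05 (SE 0.19, edgeR adjusted p = 9.2e-04). The TPM ratio of Cdt1 to Gmnn was 0.181 ± 0.054 in controls and 0.147 ± 0.063 after the antagonist, and the groups overlapped.

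All 6 subunits of the MCM2-7 ring rose, with the largest fitted change in Mcm4. The subunits unwind DNA as a ring of 1 copy each, and the log2 fold changes were 0.94 for Mcm2, 0.91 for Mcm3, 1.34 for Mcm4, 1.08 for Mcm5, 0.86 for Mcm6 and 0.88 for Mcm7. Their SEs were 0.14 to 0.16, the largest edgeR adjusted p was 9.8e-04, and no antagonist sample fell to the level of any control in any of them. Mcm4 was at 30.1, 37.4 and 27.3 CPM in controls and 87.3, 78.5 and 73.8 CPM after the antagonist. Mcm6, with the smallest change of the 6, was at 40.8, 45.7 and 29.8 CPM in controls and 67.1, 76.7 and 67.3 CPM after the antagonist. On the deposited TPM scale, which corrects for gene length, Mcm7 was the most abundant subunit in each sample, at 36.4 ± 5.8 TPM in controls and 68.3 ± 1.0 TPM after the antagonist. The share of Mcm4 in the summed TPM of the 6 subunits was 14.07%, 13.98% and 14.5% in controls and 18.9%, 17.6% and 17.3% after the antagonist, without overlap. Mcm5 moved from a mean share of 14.8% to 15.7%, also without overlap, and the other 4 subunits had overlapping shares.

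**Figure D2:**
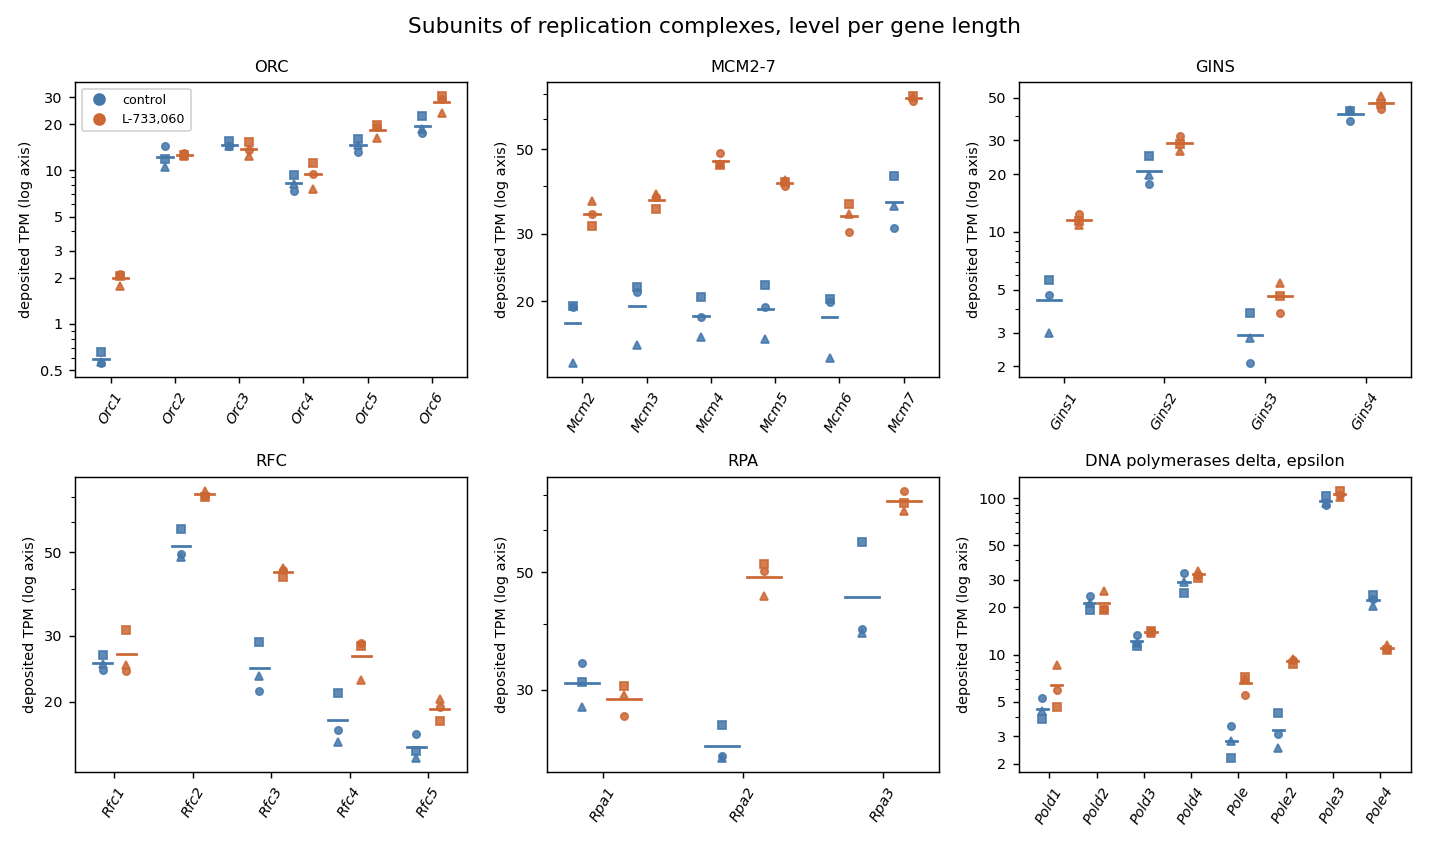
Deposited TPM (log axis) of the subunits of 6 replication complexes, with 1 point per sample, circles, squares and triangles for samples 1, 2 and 3 of each group, and a bar at each group mean. Orc1, Rpa2, Pole and Pole2 are separated widely between the groups while Orc2, Rpa1 and Pold2 overlap, and Pole4 lies lower after the antagonist.

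Among the factors that activate the ring, 3 of 6 rose and the GINS subunits ranged from clear to undetected change. Mcm10, needed to start unwinding, was at 4.81, 6.91 and 4.96 CPM in controls and 15.7, 19.0 and 15.9 CPM after the antagonist, with a log2 fold change of 1.60 (SE 0.19, edgeR adjusted p = 4.4e-05). Cdc45 rose from 6.10 ± 0.58 to 13.4 ± 2.4 CPM, by a log2 fold change of 1.13 (SE 0.19, edgeR adjusted p = 5.3e-04). Gins1 was at 3.52, 4.60 and 2.27 CPM in controls and 9.97, 8.83 and 7.91 CPM after the antagonist, a log2 fold change of 1.36 (SE 0.25, edgeR adjusted p = 9.5e-04). Gins4, a partner in the same 4-subunit complex, was at 23.8, 29.6 and 27.7 CPM in controls and 29.7, 30.2 and 31.3 CPM after the antagonist. Each antagonist value of Gins4 exceeded each control value by a small margin, and the log2 fold change of 0.17 did not pass the test (95% interval -0.11 to 0.45, edgeR adjusted p = 0.309). Gins2 and Gins3 had log2 fold changes of 0.46 (95% interval 0.04 to 0.87, edgeR adjusted p = 0.0742) and 0.64 (95% interval 0.07 to 1.20, edgeR adjusted p = 0.0669), with overlapping groups. Gins2 passed the threshold without control 2 (adjusted p = 0.0279) or antagonist sample 3 (adjusted p = 0.0259), and Gins3 without control 2 (adjusted p = 0.0205).

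Of the sliding clamp and its loader, 4 of 5 genes were called higher, with a median log2 fold change of 0.50. Pcna, the clamp that holds the polymerases on DNA, had the highest level of the 45 genes per length, at 175.5 ± 30.9 TPM in controls and 252.0 ± 7.6 TPM after the antagonist. In CPM it was at 88.4, 134.4 and 98.0 in controls and 159.5, 156.5 and 137.9 after the antagonist, so control 2 came close to the lowest antagonist sample. Its log2 fold change was 0.50 (SE 0.16, edgeR adjusted p = 0.0222). The Pcna call was lost when control 1 or 3 or antagonist sample 1 or 2 was left out, with, in that order, adjusted p-values of 0.105, 0.0889, 0.0735 and 0.0505. Rfc3, a subunit of the loader that opens the clamp, was at 15.9, 23.4 and 17.8 CPM in controls and 35.8, 33.0 and 32.7 CPM after the antagonist, a log2 fold change of 0.83 (SE 0.15, edgeR adjusted p = 0.0012). The other loader subunits moved less. Rfc2 changed by 0.44 (SE 0.13, edgeR adjusted p = 0.0181) and lost the threshold when control 1 or 3 or antagonist sample 1 was left out, with, in that order, adjusted p-values of 0.08, 0.0888 and 0.0693. Rfc4 changed by 0.56 (SE 0.19, edgeR adjusted p = 0.0363) with overlapping groups, and lost the threshold when control 1 or 3 or antagonist sample 1 or 2 was left out, with, in that order, adjusted p-values of 0.128, 0.13, 0.136 and 0.0836. Rfc5 did not pass, with a log2 fold change of 0.33 (95% interval 0.01 to 0.64, edgeR adjusted p = 0.0919).

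Of the 3 subunits of RPA, the trimer that coats single-stranded DNA, 2 were called higher and 1 was not. Rpa2 was at 18.6, 23.3 and 18.7 CPM in controls and 44.6, 44.4 and 36.1 CPM after the antagonist, a log2 fold change of 1.05 (SE 0.14, edgeR adjusted p = 1.4e-04). Rpa1, the large DNA-binding subunit, was at 49.9, 50.3 and 42.2 CPM in controls and 42.6, 47.0 and 42.2 CPM after the antagonist, and it was the only one of the 45 genes with a fitted value below 0. That log2 fold change was -0.11 (95% interval -0.38 to 0.16, edgeR adjusted p = 0.50). The TPM ratio of Rpa2 to Rpa1 was 0.766 ± 0.086 in controls and 1.71 ± 0.17 after the antagonist, without overlap. Rpa3 changed by 0.58 (SE 0.19, edgeR adjusted p = 0.0302), and that call was lost when control 1 or 3 or antagonist sample 1 or 2 was left out, with, in that order, adjusted p-values of 0.129, 0.117, 0.105 and 0.0536.

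Polymerase and primase genes rose in 4 of 6 cases, with the catalytic subunit of polymerase epsilon among the 4 and that of polymerase delta not. Pole, the catalytic subunit of polymerase epsilon, which copies the leading strand, was at 11.9, 8.13 and 9.75 CPM in controls and 20.3, 25.4 and 23.1 CPM after the antagonist. It rose by a log2 fold change of 1.21 (SE 0.17, edgeR adjusted p = 1.8e-04). Pold1, the catalytic subunit of polymerase delta, was at 11.4, 9.07 and 9.54 CPM in controls and 13.6, 10.3 and 17.8 CPM after the antagonist. These groups overlapped, and the log2 fold change of 0.48 did not pass (95% interval 0.03 to 0.93, edgeR adjusted p = 0.0827), though it did without antagonist sample 2 (adjusted p = 0.017). The TPM ratio of Pole to Pold1 was 0.620 ± 0.050 in controls and 1.10 ± 0.40 after the antagonist, without overlap.

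Of the 4 genes of the primer-making complex, 3 were called higher. Pola1, its polymerase subunit, was at 19.5, 33.3 and 24.8 CPM in controls and 50.6, 68.0 and 41.6 CPM after the antagonist, a log2 fold change of 1.04 (SE 0.21, edgeR adjusted p = 0.0020). Pola2, the accessory subunit, rose by 1.25 (SE 0.21, edgeR adjusted p = 5.9e-04) and Prim2, the large primase subunit, by 0.89 (SE 0.23, edgeR adjusted p = 0.0078). Prim1, the catalytic primase subunit, was at 23.6, 31.7 and 22.5 CPM in controls and 34.0, 31.7 and 27.7 CPM after the antagonist. Its groups overlapped, and its log2 fold change of 0.26 did not pass (95% interval -0.08 to 0.60, edgeR adjusted p = 0.197). The TPM ratio of Prim1 to Prim2 was 6.32 ± 0.62 in controls and 4.08 ± 0.61 after the antagonist, the only one of 21 ratios computed whose antagonist samples all lay below the controls.

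The 21 TPM ratios computed were between genes of a shared complex or step, and 11 of them did not overlap between the groups. They were a chosen set and not all pairs of each complex. Several join a gene of large fitted change with one of small change, such as Orc1 with Orc2 and Gins1 with Gins4. The separation of such ratios restates the fold changes given above and is no separate support. With 3 samples a group, an exact two-sided permutation test cannot go below p = 0.1, which those 11 ratios reached, with an adjusted p of 0.191 over the 21, so none passed a threshold of 0.05. The ratio of Orc1 to Orc2 was 0.0385, 0.0553 and 0.0540 in controls and 0.163, 0.163 and 0.143 after the antagonist. The ratio of Gins1 to Gins4 was 0.109 ± 0.034 in controls and 0.249 ± 0.035 after the antagonist. For the pairs Rrm2 and Rrm1, Fen1 and Lig1, and Tipin and Timeless the ratios overlapped between the groups.

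Both genes that finish lagging-strand fragments rose. Fen1, the nuclease that trims the flap of each Okazaki fragment, was at 21.4, 22.6 and 23.7 CPM in controls and 43.9, 35.5 and 37.8 CPM after the antagonist, a log2 fold change of 0.79 (SE 0.13, edgeR adjusted p = 4.7e-04). Lig1, the ligase that seals the fragments, was at 21.5, 20.9 and 18.6 CPM in controls and 35, 37.9 and 39.9 CPM after the antagonist, a log2 fold change of 0.89 (SE 0.13, edgeR adjusted p = 1.8e-04). The groups were well separated in both genes, and the spread between controls was small.

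All 4 genes that supply deoxynucleotides rose. Rrm1 and Rrm2 are the large and small subunits of ribonucleotide reductase, the enzyme that makes deoxynucleotides from ribonucleotides. Rrm1 was at 90.2, 115.8 and 87.4 CPM in controls and 208.2, 226.3 and 163.7 CPM after the antagonist, a log2 fold change of 1.03 (SE 0.15, edgeR adjusted p = 2.6e-04). Rrm2 was at 23.0, 21.4 and 20.7 CPM in controls and 51.4, 42.0 and 42.7 CPM after the antagonist, a log2 fold change of 1.06 (SE 0.13, edgeR adjusted p = 5.8e-05). The subunits kept nearly the same proportion, with a TPM ratio of Rrm2 to Rrm1 of 0.414 ± 0.068 in controls and 0.424 ± 0.073 after the antagonist. Tk1, thymidine kinase of the salvage route, rose from 25.99 ± 2.6 to 44.7 ± 3.7 CPM, by a log2 fold change of 0.78 (SE 0.13, edgeR adjusted p = 5.3e-04). Tyms, thymidylate synthase of the de novo route, changed by 0.61 (SE 0.18, edgeR adjusted p = 0.0191), with control 2 at 22.4 CPM just above antagonist sample 3 at 22.3 CPM. The Tyms call was lost when control 1 or 3 or antagonist sample 1 or 2 was left out, with, in that order, adjusted p-values of 0.0916, 0.0824, 0.0718 and 0.0504.

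Genes that copy chromatin and DNA methylation behind the fork rose in 3 of 3 cases. Chaf1b, the middle subunit of the histone chaperone CAF-1, was at 4.76, 6.30 and 5.47 CPM in controls and 17.8, 17.1 and 15.9 CPM after the antagonist. Its log2 fold change of 1.62 (SE 0.17, edgeR adjusted p = 1.7e-05) was the second in size after Orc1. Chaf1a, the large subunit, was at 9.71, 7.89 and 7.44 CPM in controls and 18.01, 12.04 and 16.9 CPM after the antagonist, a log2 fold change of 0.91 (SE 0.19, edgeR adjusted p = 0.0027). Uhrf1, which brings the maintenance methyltransferase to newly copied DNA, was at 20.4, 19.8 and 15.5 CPM in controls and 42.8, 32.8 and 46.2 CPM after the antagonist, a log2 fold change of 1.13 (SE 0.16, edgeR adjusted p = 1.9e-04).

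Both regulators of S-phase entry were called higher. E2f1, an activating E2F factor, was at 3.15, 4.28 and 3.16 CPM in controls and 5.68, 4.87 and 7.15 CPM after the antagonist, so the groups were close together. Its log2 fold change was 0.74 (SE 0.22, edgeR adjusted p = 0.0194), and the call was lost when control 1 or 3 or antagonist sample 3 was left out, with, in that order, adjusted p-values of 0.0753, 0.0719 and 0.0589. Ccne2, cyclin E2, which activates Cdk2 at S-phase entry, was at 8.28, 11.5 and 9.15 CPM in controls and 16.4, 17.8 and 12.02 CPM after the antagonist, a log2 fold change of 0.68 (SE 0.19, edgeR adjusted p = 0.0148). That call was lost when control 1 or 3 or antagonist sample 1 or 2 was left out, with, in that order, adjusted p-values of 0.0704, 0.0523, 0.0544 and 0.0508.

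The fork protection pair rose together. Timeless, which travels with the fork and couples helicase to polymerase, was at 7.12, 6.34 and 5.30 CPM in controls and 12.3, 12.6 and 14.7 CPM after the antagonist, a log2 fold change of 1.08 (SE 0.18, edgeR adjusted p = 4.9e-04). Its partner Tipin was at 10.8, 17.4 and 13.3 CPM in controls and 29.0, 28.7 and 24.2 CPM after the antagonist, a log2 fold change of 0.98 (SE 0.18, edgeR adjusted p = 9.5e-04). The groups did not overlap in either gene.

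**Figure D3:**
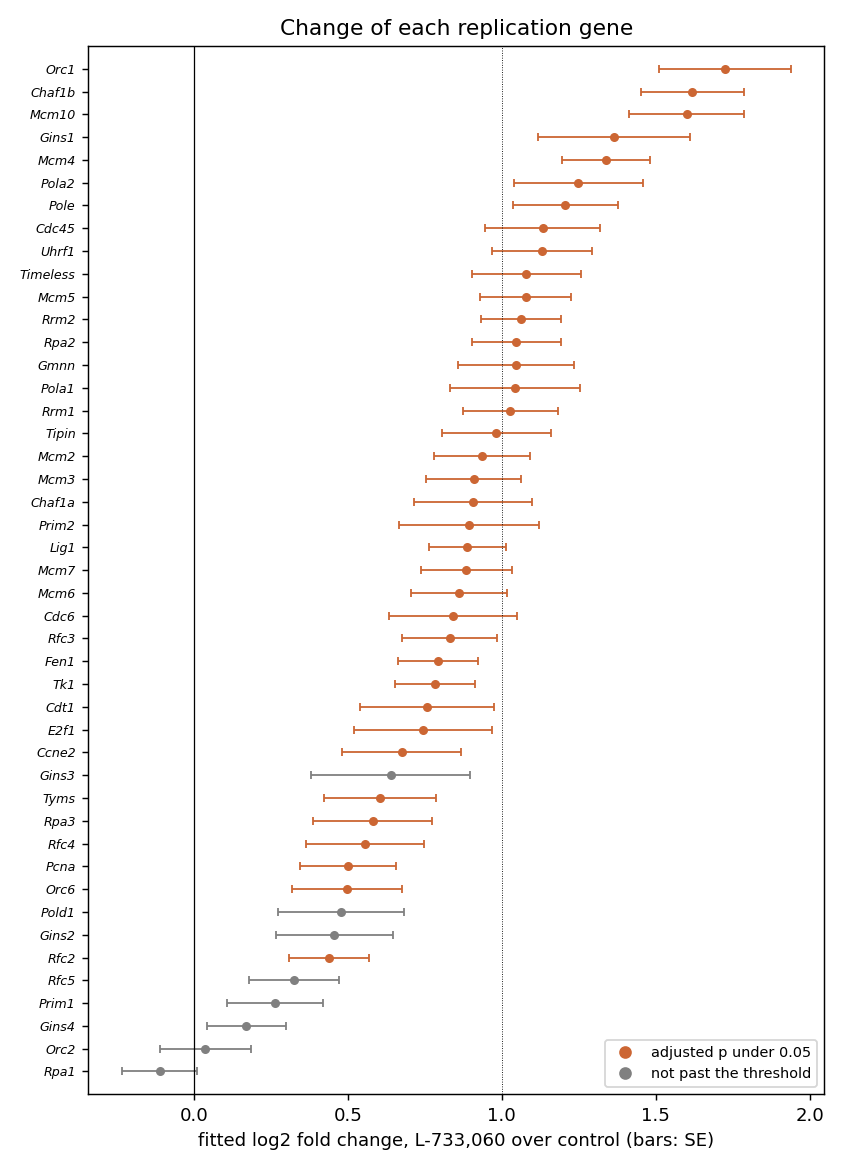
Fitted log2 fold change of each of the 45 genes (antagonist over control, x axis), ordered by size, with bars of 1 SE; orange points passed the adjusted threshold of 0.05 and grey points did not. Values run from -0.11 for Rpa1 to 1.72 for Orc1, and the dotted line marks a fold of 2, reached by 16 genes.

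Genes with lower levels in the controls tended to have larger fitted changes. Across the 45 genes, Pearson's r between the log2 of the mean control TPM and the log2 fold change was -0.48 and Spearman's rho was -0.42. These are descriptions over genes measured in the same 6 libraries, and the control values enter both measures. Mean control levels ran from 0.593 TPM for Orc1 to 175.5 TPM for Pcna, with a median of 15.2 TPM, and the median after the antagonist was 24.99 TPM. A TPM value depends on the deposited gene length, which for Orc1 is 8141 bases. The coefficient of variation between samples had a median over the 45 genes of 18.6% in controls and 11.1% in antagonist samples.

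Some of the 45 genes share bases with another gene, and the sources used here do not give the strand setting of the authors' counting. Of the 45, 11 overlap a protein-coding gene on the opposite strand, and in 7 of these the partner has more counts. Reads of a pair could be mixed if strand was not used, above all where exons are shared. The partner Ubxn6 of Chaf1a had 12500 counts over the 6 samples against 1529 for Chaf1a, and its log2 fold change was -0.57 while that of Chaf1a was 0.91. Rfc4 had 1640 counts and its partner Eif4a2 had 32849, with a log2 fold change of -0.11. Gins2 had 1571 counts and its partner Gse1 had 1889, with a log2 fold change of -0.92. By the exons of the GENCODE annotation, which can differ from the deposited spans, Chaf1a and Ubxn6 share 4648 bases. Rfc4 and Eif4a2 share 194 and Gins2 and Gse1 2758, so the values of Chaf1a, Rfc4 and Gins2 are uncertain. The other partners with more counts had fitted log2 fold changes above 0. These were Prpf38a of Orc1 at 0.21, Ufd1 of Cdc45 at 0.40, Tmem258 of Fen1 at 0.07 and Ints8 of Ccne2 at 0.35. Orc1 had 628 counts against 4663 for Prpf38a, and Cdc45 had 1224 against 5992 for Ufd1. By GENCODE exons Orc1 and Prpf38a share 0 bases, so their overlap does not join exons of both. Cdc45 and Ufd1 share 209 exon bases, Fen1 and Tmem258 130, and Ccne2 and Ints8 609. The part of mixed reads in the values of these genes was not tested. A pair of Prim1 and Timeless, 202033 bases apart on chromosome 10, and a pair of Uhrf1 and Chaf1a, 235311 bases apart on chromosome 17, were the neighbours among the 45.

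Replication factors outside the 45 genes were also mostly higher where they changed. Of 35 such factors, 17 were called higher, 1 lower and 17 not changed past the threshold, with a median log2 fold change of 0.38. Dbf4, the activator of the Cdc7 kinase that fires origins, was at 9.48, 8.74 and 7.61 CPM in controls and 32.6, 32.3 and 22.3 CPM after the antagonist, a log2 fold change of 1.75 (SE 0.18, edgeR adjusted p = 1.5e-05). Clspn (Claspin, which relays the checkpoint signal) and Top2a (topoisomerase II alpha, which untangles copied DNA) rose by 1.54 and 1.45. Pole4, a small histone-fold subunit of polymerase epsilon, fell, from 45.5, 52.9 and 42.0 CPM in controls to 23.7, 22.4 and 22.7 CPM after the antagonist, with a log2 fold change of -1.03 (SE 0.13, edgeR adjusted p = 6.8e-05).

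The remaining subunits of the complexes named above were picked after their values were seen, to complete each complex. Pole2, the second subunit of polymerase epsilon, changed with Pole, by a log2 fold change of 1.45 (SE 0.22, edgeR adjusted p = 3.2e-04), while Pole3, a histone-fold subunit, changed by 0.13 (edgeR adjusted p = 0.457). Of polymerase delta, Pold2 changed by -0.02, Pold3 by 0.19 and Pold4 by 0.16, and none passed. In ORC, Orc3 changed by -0.11, Orc4 by 0.17 and Orc5 by 0.31, and none passed, though Orc5 did without antagonist sample 3 (adjusted p = 0.0411). Rfc1, the large loader subunit, changed by 0.06 and did not pass.

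Other genes of nucleotide supply, S-phase control, checkpoint and chromatin were also mostly higher. Of 14 further genes of nucleotide supply 8 were called higher and 0 lower (median log2 fold change 0.55), among them Samhd1, which breaks down deoxynucleotides, at 1.22, Ctps (CTP synthase) at 1.42, Dut (dUTPase) at 0.98 and Shmt1 (serine hydroxymethyltransferase) at 0.75. At an unadjusted p under 0.05 the edgeR fit had 0 of the 14 lower, and DESeq2 called 0 lower. Of 20 genes for E2F proteins, their partners and S-phase cyclins and kinases, 11 were higher and 1 lower (median 0.48), among them Ccna2 (cyclin A2) at 0.99, Tfdp1 (an E2F partner) at 0.80, E2f5 at 1.19 and Rbl1 (p107) at 0.63. The lower gene was E2f6, a repressive E2F, at -0.43 (SE 0.15, edgeR adjusted p = 0.0365), and it lost the threshold when control 1 or 3 or antagonist sample 1 was left out, with, in that order, adjusted p-values of 0.146, 0.0603 and 0.134. The count of lower genes in this list was 0 in those fits and 2 when control 2 or antagonist sample 3 was left out. At an unadjusted p under 0.05 the edgeR fit of all samples had 3 of the 20 lower, and DESeq2 called 1 lower.

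Of 19 genes of the replication checkpoint and fork repair, 12 were higher and 0 lower by edgeR (median 0.81), with 1 lower at an unadjusted p under 0.05 and 0 lower by DESeq2. Blm, a helicase of fork repair, rose by 1.62, Brca2, which acts in repair by homologous recombination, by 1.12, and Rad18, a ubiquitin ligase that modifies PCNA, by 0.94. Of 13 genes of chromatin assembly and maintenance methylation 9 were higher and 0 lower by edgeR (median 0.54), also with 0 lower at an unadjusted p under 0.05 and by DESeq2. Hells, a chromatin remodeller, rose by 1.40, Pclaf, a PCNA-binding protein, by 1.29, Asf1b, a histone chaperone, by 1.12 and Supt16, a subunit of the histone chaperone FACT, by 0.81.

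**Figure D4:**
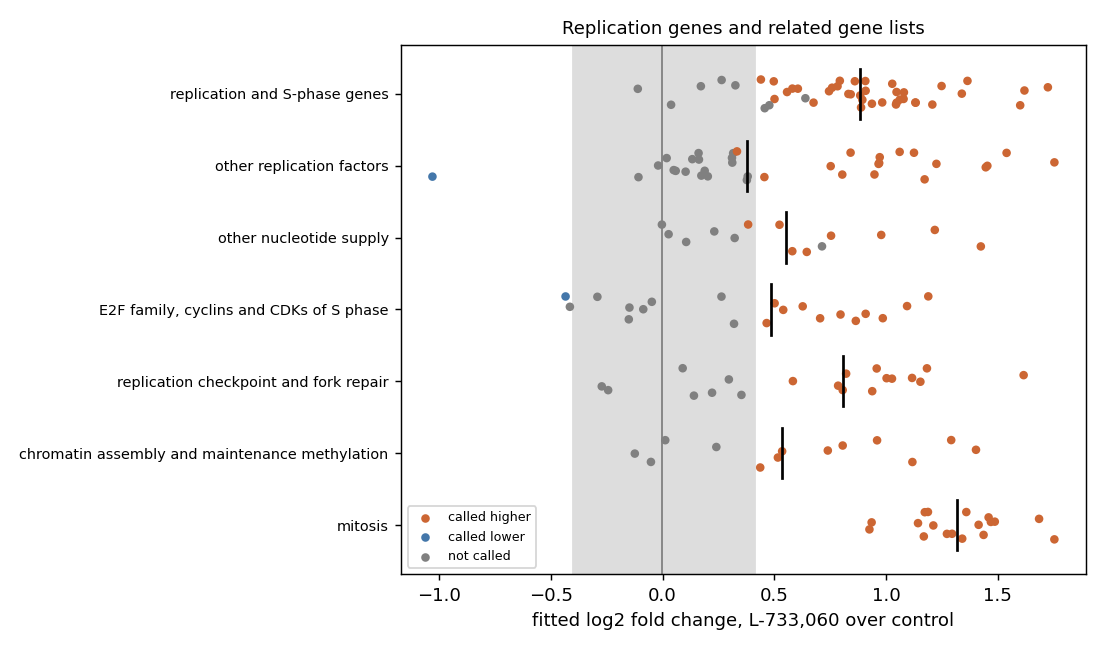
Fitted log2 fold change (x axis) of each tested gene in the 45 replication genes and 6 related lists, 1 point per gene, with a black bar at each list's median and a grey band for the middle 50% of all tested genes. The medians run from 0.38 for other replication factors to 1.32 for mitosis genes.

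Mitotic genes rose as well. All 18 genes of a mitosis list were called higher, 16 of them with a fold of at least 2, with a median log2 fold change of 1.32, and the difference from the 0.88 of the replication genes was not tested. Ccnb1, cyclin B1, which drives entry into mitosis, was at 28.1 to 34.1 CPM in controls and 65.3 to 101.8 CPM after the antagonist. The summed CPM of the 45 replication genes was 904.3, 1122 and 861.1 in controls and 1746, 1723 and 1554 after the antagonist. The summed CPM of the 18 mitosis genes was 497.0, 453.8 and 453.0 in controls and 1348, 1214 and 942.9 after the antagonist. The ratio of the replication sum to the mitosis sum was 1.82, 2.47 and 1.90 in controls and 1.30, 1.42 and 1.65 after the antagonist, so every antagonist sample lay below every control. This ratio was not tested, and with 3 samples a group an exact two-sided permutation test cannot go below p = 0.1.

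**Figure D5:**
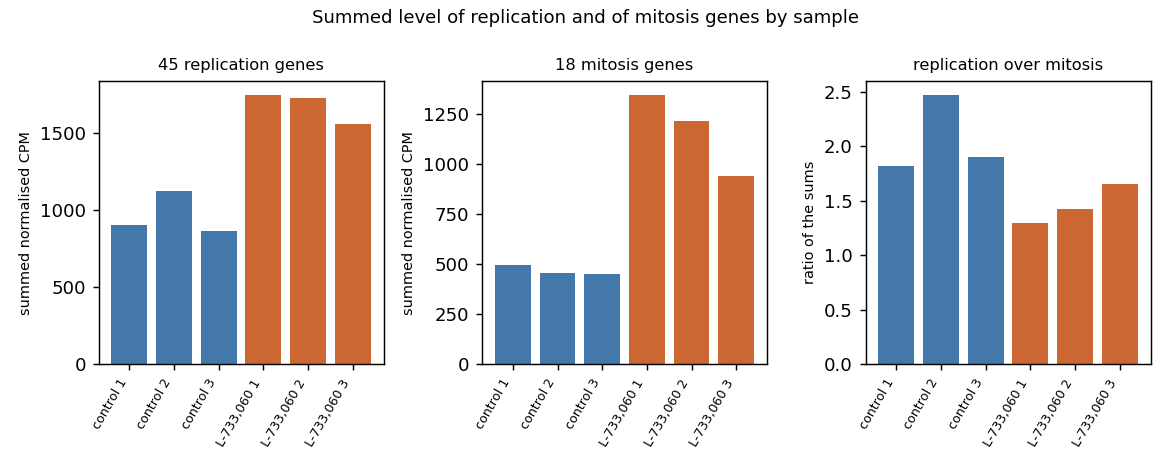
Bars give, for each of the 6 samples, the summed normalised CPM of the 45 replication genes, that of the 18 mitosis genes, and the ratio of the 2 sums, each axis starting at 0. Both sums are higher in the 3 antagonist samples, and the ratio is lower in them, at 1.30 to 1.65 against 1.82 to 2.47.

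The start regions of the mitosis genes were searched in the same way. The E2F motif was present in 1 of 15 mitosis genes with a window (6.67%), against 37.1% of the replication genes and 30.0% of the other replication factors. The letters TTTGAA, the core of the element called CHR that is known from genes of late cell cycle, were present in 10 of the 15 mitosis genes (66.7%), in 4 of the 35 replication genes (11.4%) and in 15.3% of the tested genes. The letters CCAAT were present in 62.9% of the replication genes, 86.7% of the mitosis genes and 42.2% of the tested genes. All were searched on both strands in the same windows, and the lists were not tested against each other.

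Markers of several cell types moved between the same groups as the replication genes. The 8 epithelial markers summed to 52030 to 59900 CPM in controls and 33470 to 40960 CPM after the antagonist, with 2 higher and 4 lower (2 lower when antagonist sample 1 was left out). Krt12, the keratin of corneal epithelium, was at 16590 to 23250 CPM in controls and 1427 to 2065 CPM after the antagonist, and Krt14, a basal keratin, at 1338 to 2125 CPM and 13210 to 18210 CPM. Krt15 was among the markers called lower. It lost the threshold without antagonist sample 1 (edgeR adjusted p = 0.0507) or control 3 (edgeR adjusted p = 0.0718). All 6 conjunctival markers were higher, summing to 10080 to 11580 CPM in controls and 23530 to 28810 CPM after the antagonist. Of 8 tested leukocyte markers 7 were higher, and without Itgam, which made up most of the sum in every sample and did not pass, their sum was 47.1 to 57.7 CPM in controls and 231.2 to 321.5 CPM after the antagonist. Ptprc, which encodes the pan-leukocyte protein CD45, was at 1.67, 2.91 and 3.34 CPM in controls and 16.2, 17.8 and 10.01 CPM after the antagonist.

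Of 7 stromal markers 3 were higher and 3 lower, with sums of 2023 to 2972 CPM and 1586 to 2092 CPM. Of 5 endothelial markers 2 were higher, with sums of 28.3 to 43.7 CPM and 40.6 to 58.2 CPM. The 5 melanocyte markers summed to 8.74 to 16.6 CPM and 4.60 to 8.52 CPM, with 2 lower (0 or 1 in 4 of the 6 fits that left out a sample). The 6 markers of lacrimal and Meibomian glands summed to 0.694 to 1.08 CPM and 0.642 to 1.01 CPM, with Lcn11, Prol1 and Elovl3 at 0 in every sample. The part of these cell types in the change of the replication genes was not tested.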

How the data were processed

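Poly(A) RNA of 6 limbus samples was sequenced. Per the submitters' processing notes, bcl2fastq, HISAT2 2.1.0, HTSeq 0.11.2 and the genome mm10 were used. The sources used here do not give the strand setting. The deposited table holds a whole-number read count per gene and sample, a gene length and TPM. TPM was computed by the authors and equals count over length, rescaled per sample, to within 4.96e-06. Positions of all 45 genes equal those of RefSeq GRCm38.p6.

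Counts were analysed in R 4.3.3 with edgeR 4.0.16 (filterByExpr with minimum count 10 and minimum total 15, TMM scaling, quasi-likelihood F test of treatment only, two-sided). P-values were adjusted by Benjamini-Hochberg over all 15712 tested genes, with a threshold of 0.05. Normalised CPM uses TMM library sizes; the common biological coefficient of variation was 0.157. The SE is the absolute log2 fold change over the square root of F, and 95% intervals use the fit's degrees of freedom. The fit was tested on simulated data, in which far fewer genes changed than were called here and the spread was that estimated by the same fit. PCR duplicates were not distinguished, since the labels describe no molecular identifiers.

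Alternatives were DESeq2 1.42.0 size factors and Wald test, total counts, no filter, a replicate block and leaving out each sample. All 45 genes are named; of other lists, up to 4 of smallest p past the threshold and any that moved against the majority, and other subunits only where said. A few genes of those lists are not reported here. The genes and lists were chosen with earlier results of these data known.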

Additional observations from a re-analysis of the deposited data

How the results depend on the processing

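The count of replication genes called higher was 37 and stayed within 1.5 times of that in every setting run: 37 with DESeq2 size factors, 38 with total counts, 37 with the DESeq2 Wald test, 38 without the filter on low counts, and 29 to 38 with 1 sample left out, with 0 called lower in each. The labels do not say whether same-numbered samples form pairs. Deviations of same-numbered samples correlated at -0.022, 0.273 and 0.133 over 15712 genes, and those of differently numbered samples at -0.296 to 0.163. These values cannot settle whether the samples were paired. With the number as a replicate block the count of replication genes called higher was 40. Over all tested genes, 3367 were higher and 3129 lower, against 3609 and 3462 with the replicate block, 3761 and 2642 with total counts, and 2677 to 3722 and 2354 to 3788 with 1 sample left out. Total counts put the median log2 fold change of all genes at 0.05. Among single replication genes, 32 results lost the threshold and 9 gained it over all settings, and only Orc2 changed sign, to -0.0179 without L-733,060 1 and -0.0723 without control 3, in a range of -0.0723 to 0.1281 over the 6 fits. Gins2 passed with total counts (adjusted p = 0.0452) and with the block (0.0427), Gins3 without the filter (0.0386) and with the block (0.0244), and Pold1 with the block (0.0482). E2f6 lost its call with total counts (0.0658). With 3 samples a group, small changes such as those of Gins4 and Rfc5 lie within the intervals given.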
